A study of Rattus norvegicus with 2 samples.

Results

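Laminin chains, the subunits of the cross-shaped proteins that form the first sheet of a basement membrane, were followed in 2 colonies of the rat glioma line C6, long used as a model of astrocytic brain tumours. The set named 9 rat chain genes (Lama1, Lama2, Lama3, Lama4, Lama5, Lamb1, Lamb2, Lamb3 and Lamc1), and a gene counted as measured where the platform annotation gave an array feature exactly 1 symbol and that symbol was the gene's. By this rule 8 of the 9 genes were measured, of 18166 genes in all, and Lamb1 was not analysed here. Where a gene had several features, the one with the highest mean level stood for it. Colony No.8 and colony No.4 were each a single colony grown from C6 and described as undifferentiated, with 1 array of total RNA per colony. Both carried the same treatment text, CHIR99021 at 20 µM and forskolin at 100 µM for 35 days, in medium with 10% serum. CHIR99021 inhibits the kinase GSK3 and forskolin raises cyclic AMP. The labels do not say whether the RNA was taken before or after that treatment, so no untreated partner can be named. With no replicate array there is no spread between replicates and no test, and every value below is a single measurement.

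A laminin is a trimer of an α, a β and a γ chain, wound together in a coiled coil inside the cell and secreted as a unit. The short arms of the chains join neighbouring laminins into a network, and the globular end of the α chain binds integrins and dystroglycan on the cell surface. In brain, laminins lie mainly around blood vessels and beneath the pia, and glioma cells are known to migrate along these membranes. Trimers are named by their chain numbers, so laminin 421 holds α4, β2 and γ1.

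Levels are given in log2 units as deposited, and differences are colony No.8 minus colony No.4. The floor was set at 4.33, the median over every deposited value. A level is bright here where it reached 6.37, the upper quartile of all values. Between them lay 5.67, the 99th percentile of 1184 olfactory receptor genes, a family largely restricted to the nose. Probes differ in brightness, so each chain was set against these array-wide marks and not against another chain. The quartiles of the arrays were close (medians 4.31 in colony No.8 and 4.34 in colony No.4). Of 8 glia and glioma markers 6 were past the floor, beside 60.9% of all measured genes. Vim, Nes, S100b and Sox2 were bright in both colonies, beside 31.6% of all measured genes. Gfap, the astrocytic filament gene, read 5.17 in colony No.8, against 4.11 in colony No.4, and the astrocyte genes Slc1a3 and Aqp4 were below the floor in both.

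The 8 measured chains fell into 4 that were bright in both colonies and 4 that were below the floor in both. The bright chains were Lama4, Lama5, Lamb2 and Lamc1, which encode α4, α5, β2 and γ1. The chains below the floor were Lama1, Lama2, Lama3 and Lamb3, which encode α1, α2, α3 and β3. Of the chains, 4 of 8 were past the floor in at least 1 colony, near the 60.9% of all measured genes, and the same 4 of 8 passed the olfactory mark in both, beside 40.6%. Over all measured genes, 31.6% were bright in both colonies and 39.1% were below the floor in both, so the 4 of 8 in each class describe these chains and were not tested. No measured chain of the set lay between the floor and the bright mark, and no chain of the set changed class between the colonies.

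**Figure D1:**
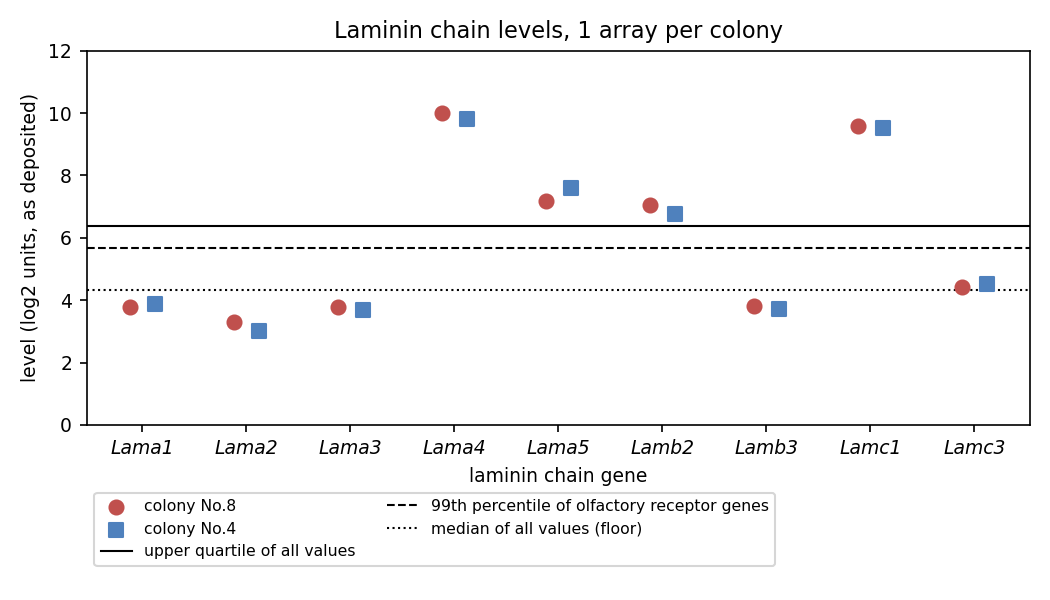
Levels in log2 units (vertical axis) of the 8 measured laminin chains and of Lamc3, a γ chain outside the set, with 1 point per array (circles, colony No.8; squares, colony No.4) and the 3 array-wide marks as lines. Lama4, Lama5, Lamb2 and Lamc1 lie above all 3 lines, Lamc3 lies just above the floor of 4.33, and the other chains lie below it.

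Lama4 encodes α4, a chain with a truncated short arm that is typical of the membranes of blood vessels and peripheral nerve. Its level was 10.02 in colony No.8 and 9.82 in colony No.4, above 98.5% of measured genes in colony No.8 and 98.0% in colony No.4. The difference was 0.20 (1.15-fold higher in colony No.8). Lama4 was the only member with 2 features, and the dimmer one read 9.11 in colony No.8 and 8.75 in colony No.4, a difference of 0.36. Both features were bright and both were higher in colony No.8.

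Lama5 encodes α5, the most widespread α chain of adult basement membranes. Its level was 7.17 in colony No.8 and 7.60 in colony No.4, above 76.7% of measured genes in colony No.8 and 82.6% in colony No.4. The difference of -0.42 (1.34-fold higher in colony No.4) was the largest in size among the 8 chains. Of the genes past the floor in at least 1 colony, 29.9% were at least as far apart, so a gap of this size was common between these arrays.

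Lamb2 encodes β2, a chain found at neuromuscular junctions, in the kidney filter and around brain vessels. It read 7.06 in colony No.8, against 6.77 in colony No.4, a difference of 0.28 (1.22-fold higher in colony No.8). Lamb2 exceeded 74.98% of measured genes in colony No.8 and 71.61% in colony No.4, the lowest ranks among the bright chains. The bright mark is the upper quartile of all deposited values, features without a symbol included, and not of measured genes. Lamc1 encodes γ1, the chain shared by most laminins and the one that binds nidogen. It read 9.60 in colony No.8, against 9.51 in colony No.4, a difference of 0.09 (1.06-fold higher in colony No.8). Lamc1 exceeded 97.4% of measured genes in colony No.8 and 96.9% in colony No.4. Bright γ1 with bright β2 was thus seen in both colonies.

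Of the dim chains, Lama1, the α1 chain of early embryonic membranes, read 3.77 in colony No.8, against 3.86 in colony No.4. Lama2, the α2 chain of muscle and Schwann cell membranes, read 3.29 in colony No.8, against 3.01 in colony No.4. Both stayed under the floor in each colony, where no call of detection separates a level from background. Lama3 and Lamb3, the α3 and β3 chains of epithelial membranes, read 3.80 and 3.82 in colony No.8, against 3.70 and 3.72 in colony No.4. No fold is given for these 4 genes.

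Upstream sequence is shown for 3 bright chains, Lama4, Lama5 and Lamc1, and for the dim chain Lamb3. The chains were chosen after their base composition and motif content were seen, to show a range in both. Lama5 and Lamc1 were close to each other in base composition. Each stretch holds the 250 bases before the gene start in RefSeq, assembly GRCr8, 5′ to 3′ on the gene's strand. RefSeq's table matched 7 of the 8 measured chains, with no entry used for Lamb2. Capitals mark matches on either strand to any of 5 motifs, namely the GC box GGGCGG, the TATA box TATAAA, the core TGACG of the cyclic AMP response element, the AP-1 site TGANTCA and the TCF/LEF site ATCAAAG.
Lama4 (GRCr8, chr20:43946648-43946897, plus strand): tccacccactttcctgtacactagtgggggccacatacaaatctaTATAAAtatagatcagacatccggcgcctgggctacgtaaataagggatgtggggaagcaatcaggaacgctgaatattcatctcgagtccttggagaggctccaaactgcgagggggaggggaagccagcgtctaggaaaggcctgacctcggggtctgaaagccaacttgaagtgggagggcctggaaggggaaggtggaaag
Lama5 (GRCr8, chr3:187695975-187696224, minus strand): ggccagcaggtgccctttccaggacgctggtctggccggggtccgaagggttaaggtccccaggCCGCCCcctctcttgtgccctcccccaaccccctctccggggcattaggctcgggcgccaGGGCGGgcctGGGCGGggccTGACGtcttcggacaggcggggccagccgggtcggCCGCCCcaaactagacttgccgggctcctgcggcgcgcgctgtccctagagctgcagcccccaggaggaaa
Lamc1 (GRCr8, chr13:68051987-68052236, minus strand): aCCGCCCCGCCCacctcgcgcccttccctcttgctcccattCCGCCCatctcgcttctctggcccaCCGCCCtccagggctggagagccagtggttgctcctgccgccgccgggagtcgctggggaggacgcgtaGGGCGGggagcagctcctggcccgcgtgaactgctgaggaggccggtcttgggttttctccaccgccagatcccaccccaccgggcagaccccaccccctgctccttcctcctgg
Lamb3 (GRCr8, chr13:107362303-107362552, plus strand): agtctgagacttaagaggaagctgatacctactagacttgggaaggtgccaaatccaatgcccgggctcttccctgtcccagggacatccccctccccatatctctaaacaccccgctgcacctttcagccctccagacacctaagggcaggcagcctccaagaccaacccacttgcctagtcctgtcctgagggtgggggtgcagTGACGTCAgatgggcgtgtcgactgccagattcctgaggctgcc

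The Lama5 and Lamc1 stretches were rich in G and C, and the Lama4 stretch was not. Lama5 had 72.8% G and C with 20 CG pairs, and Lamc1 had 71.2% with 19 CG pairs, against medians of 52.0% and 6 CG pairs over 27457 RefSeq promoters. The GC box matched 4 times in Lama5 and 5 times in Lamc1, where 2 matches overlap, and 32.4% of all promoters held at least 1 match. Lama4 had 53.2% G and C, 8 CG pairs and no GC box, and it held a TATA box match, as 13.1% of promoters did. That match lay toward the end of the window that is far from the gene start. Among the dim chains, Lama1 had 6 CG pairs with 44.8% G and C, Lama2 had 2 with 55.6%, Lama3 had 6 with 58.0% and Lamb3 had 5 with 58.4%. Lama2 also held 1 GC box match, so neither G and C content nor the GC box separated the bright chains from the dim ones. Counts of CG pairs were higher in every bright chain with a sequence than in any of the dim ones. Lamc3, a γ chain outside the set that was not bright, had 12 CG pairs, more than Lama4. Whether CG pairs bear on the levels was not tested.

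The treatment text names agents that act on the CREB and TCF/LEF pathways, so their letters were searched too. The core TGACG was found once in Lama5, once in Lama3 and as an overlapping pair on opposite strands in Lamb3, and 19.0% of all promoters held it. None of the 7 stretches held ATCAAAG, which 3.18% of promoters held. AP-1 matches were found in Lama3 alone, 3 in number, against a share of 6.36% of promoters. These matches describe letters in a window and say nothing of binding.

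Of the 4 chains past the floor, 0 differed by 2-fold in either direction, and neither did the 4 below it, whereas, of the 11069 genes past the floor, 2.91% were higher in colony No.8 by 2-fold or more and 2.57% were higher in colony No.4 by as much, 5.47% in all. With so few chains and so low a background, a count of 0 is no result about the chains. Of the 8 chains, 6 read higher in colony No.8 (Lama2, Lama3, Lama4, Lamb2, Lamb3 and Lamc1) and 2 read higher in colony No.4 (Lama1 and Lama5). Of these 8, Lama1, Lama2, Lama3 and Lamb3 were below the floor, where a sign may reflect background, and the share of all genes reading higher in colony No.8 is not given. The median difference over the 8 was 0.10, the value of Lama3 and Lamb3, beside 0.03 over all measured genes. Over the 4 chains past the floor the median was 0.14, beside 0.04 over all genes past the floor. Differences between -0.22 and 0.30 made up the middle 50% of genes past the floor, and of the 4 bright chains only Lama5 lay outside that range. As a guide to measurement error within an array pair, 163 genes had 2 features past the floor, and the differences given by the 2 features were apart by a median of 0.14 and by 0.54 at the 90th percentile. Every chain's difference was smaller in size than 0.54, while those of Lama2, Lama4, Lama5 and Lamb2 were larger in size than 0.14. This guide compares 2 features on the same arrays, so it misses error that the features of an array share. It was taken from features past the floor and does not cover the 4 chains below it.

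Of 13 chain combinations taken from the laminin nomenclature, those that the bright chains allow were laminin 421 and laminin 521, in both colonies. Laminin 421 (α4, β2, γ1) and laminin 521 (α5, β2, γ1) had every chain past the upper quartile of all values in each colony. Both need β2, whose gene Lamb2 ranked lowest of the bright chains among measured genes. Laminin 411 and laminin 511, known as major laminins of vessel walls, had their α and γ1 chains bright in both colonies, while their β1 chain, Lamb1, was not analysed here. These trimers were therefore neither allowed nor lacking by this rule.

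The trimers with a measured chain below the floor numbered 7 in each colony. They were laminin 111 and 121, which need α1, laminin 211, 221 and 213, which need α2, and laminin 311 and 321, which need α3. The γ3 chain gene Lamc3 read 4.42 in colony No.8, against 4.53 in colony No.4, past the floor and under the olfactory mark in each. With the floor as the only mark, laminin 423 and laminin 523 were therefore allowed as well, 4 trimers per colony in place of 2. At 5.67 and at 6.37 the count was 2 in each colony. RNA levels give no amount of any trimer, and whether the chains were made in the same cells was not measured. Fewer cells with a transcript and less of it per cell cannot be told apart in these RNA pools.

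**Figure D2:**
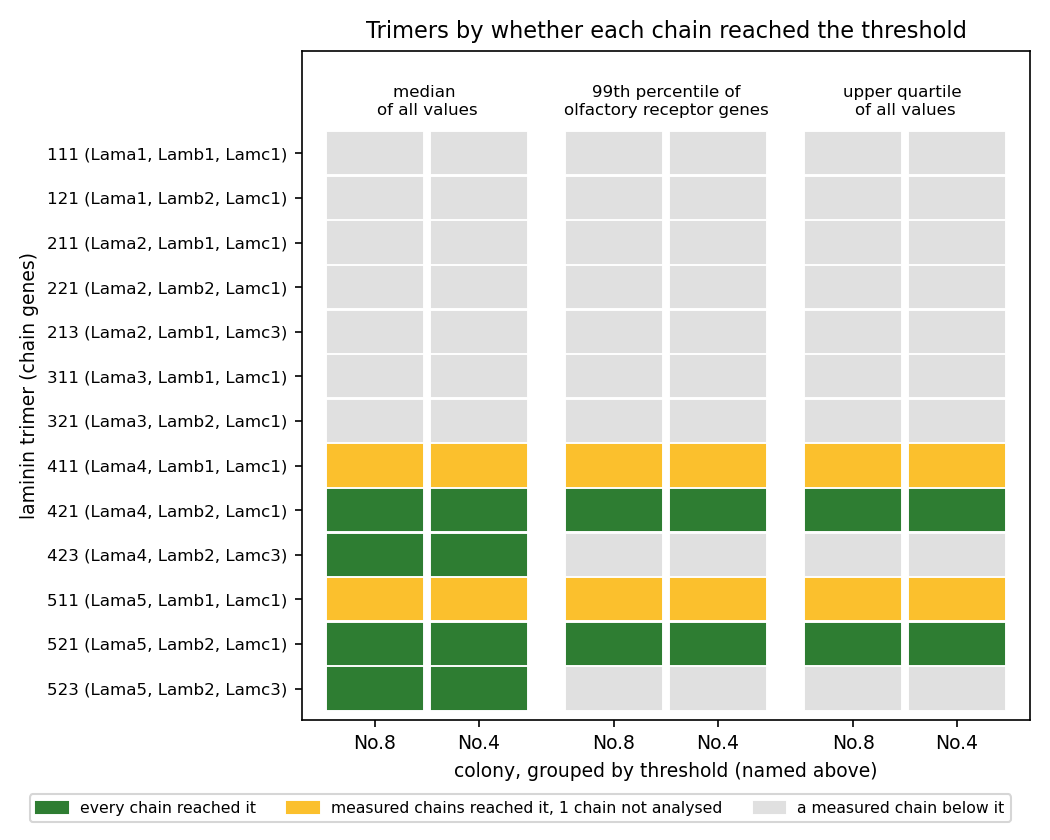
Rows are 13 laminin trimers with their chain genes; columns are the colonies (No.8 left, No.4 right) under each of 3 level marks. Green cells had every chain at or above the mark, yellow cells had a chain that was not analysed and no measured chain below the mark, and grey cells had a measured chain below it; laminin 421 and 521 are green throughout, and laminin 423 and 523 are green at the median of all values only.

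Among laminin receptors, 5 of 7 integrin genes and 6 of 7 other receptor genes were bright in both colonies, beside 31.6% of all measured genes, and no integrin gene past the floor reached 2-fold. Itga3 and Itga6, the α subunits of the main integrin receptors for α5 laminins, read 10.54 and 10.53 in colony No.8, against 11.10 and 10.90 in colony No.4. Itgb1, their shared β subunit, read 9.30 in colony No.8, against 9.69 in colony No.4. All 3 read lower in colony No.8, with differences of -0.56 for Itga3, -0.38 for Itga6 and -0.40 for Itgb1. Itga1, a subunit of a receptor for collagen and laminin, was bright too and read the other way, with 10.37 in colony No.8, against 10.21 in colony No.4. Itga7, best known as the muscle laminin receptor, read 7.30 in colony No.8, against 7.36 in colony No.4. Itgb4, which pairs with the α6 subunit in the hemidesmosomes of epithelia, was at 4.83 in both, past the floor and under the olfactory mark. Of the 7 integrin genes, 6 were past the floor, beside 60.9% of all measured genes. Of those 6, 0 were 2-fold apart, beside 5.47% of all genes past the floor. The median difference was -0.06 over the 7 and 0.03 over all measured genes, and it was -0.22 over the 6. The gene below the floor, Itga2, read 4.11 in colony No.8, against 2.86 in colony No.4. Itga1 and Itga2 were named after their values were seen.

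Of 7 other laminin receptor genes, all 7 were past the floor, beside 60.9% of all measured genes. By 2-fold or more, 1 was higher in colony No.8 and 1 higher in colony No.4, beside 2.91% and 2.57% of all genes past the floor. Mcam, the adhesion molecule CD146 and a receptor for α4 laminins, read 9.35 in colony No.8, against 7.93 in colony No.4 (2.68-fold higher in colony No.8). Sdc1, a heparan sulfate proteoglycan of the cell surface, read 8.75 in colony No.8, against 9.81 in colony No.4 (2.09-fold higher in colony No.4). Dag1, which encodes dystroglycan, was bright, at 10.81 in colony No.8, against 10.50 in colony No.4. Bcam, a receptor that binds α5, read 5.34 in colony No.8, against 5.63 in colony No.4, under the olfactory mark in both. The median difference of the list was 0.30, beside 0.03 over all measured genes. With an offset of 64 added on the linear scale, which shrinks differences of dim genes most, the difference of Mcam was 1.22 and that of Sdc1 -0.96, so that of Sdc1 was then under 2-fold.

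Dystroglycan binds laminin through a sugar chain and links it to dystrophin or utrophin inside the cell. Of 10 measured genes of that complex, 8 were past the floor, beside 60.9% of all measured genes. Of those 8, 0 were 2-fold apart, beside 5.47% of all genes past the floor. The median difference was 0.35 over the 10, or 0.10 with the offset, beside 0.03 over all measured genes. Among the 8 past the floor, the largest differences were those of Sntb1 and Sgcb. Sntb1, a syntrophin, read 8.60 in colony No.8, against 7.92 in colony No.4. Sgcb, a sarcoglycan, read 7.71 in colony No.8, against 7.29 in colony No.4. Of 13 measured genes for dystroglycan glycosylation, 11 were past the floor and 0 were 2-fold apart, with a median of 0.05 over the 13 and 0.23 over the 11. The same shares over all genes stand beside these counts. With so few genes and so low a background, a count of 0 is no result about either list. Dolk, the dolichol kinase gene, read 6.41 in colony No.8, against 5.68 in colony No.4. Pomk, a kinase that acts on the growing sugar chain, read 6.88 in colony No.8, against 6.23 in colony No.4.

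Single genes among the other basement membrane components passed 2-fold, in both directions. Agrn, the heparan sulfate proteoglycan agrin that binds the laminin coiled coil, read 7.83 in colony No.8, against 6.72 in colony No.4 (2.16-fold higher in colony No.8). Col18a1, the collagen that carries endostatin, read 7.67 in colony No.8, against 8.70 in colony No.4 (2.03-fold higher in colony No.4). The collagen IV genes Col4a1 and Col4a2, which encode the chains of the main collagen of these membranes, read 6.46 and 7.03 in colony No.8, against 5.51 and 6.20 in colony No.4. Their differences, 0.95 and 0.83, stayed under 2-fold. With the same offset, Agrn (0.78) and Col18a1 (-0.84) were under 2-fold as well.

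Nidogens bridge the γ1 chain to collagen IV. Nid2 was bright, at 7.59 in colony No.8, against 7.25 in colony No.4. Nid1 was below the floor, at 3.92 in colony No.8, against 3.52 in colony No.4. Of these nidogen genes, Nid2 alone was past the floor. Of 17 measured basement membrane partners, 11 were past the floor, beside 60.9% of all measured genes. Of those 11, 1 was above and 1 under its colony No.4 level by 2-fold or more, beside 5.47% of all genes past the floor. The list median was 0.34, or 0.07 with the offset, beside 0.03 over all measured genes.

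**Figure D3:**
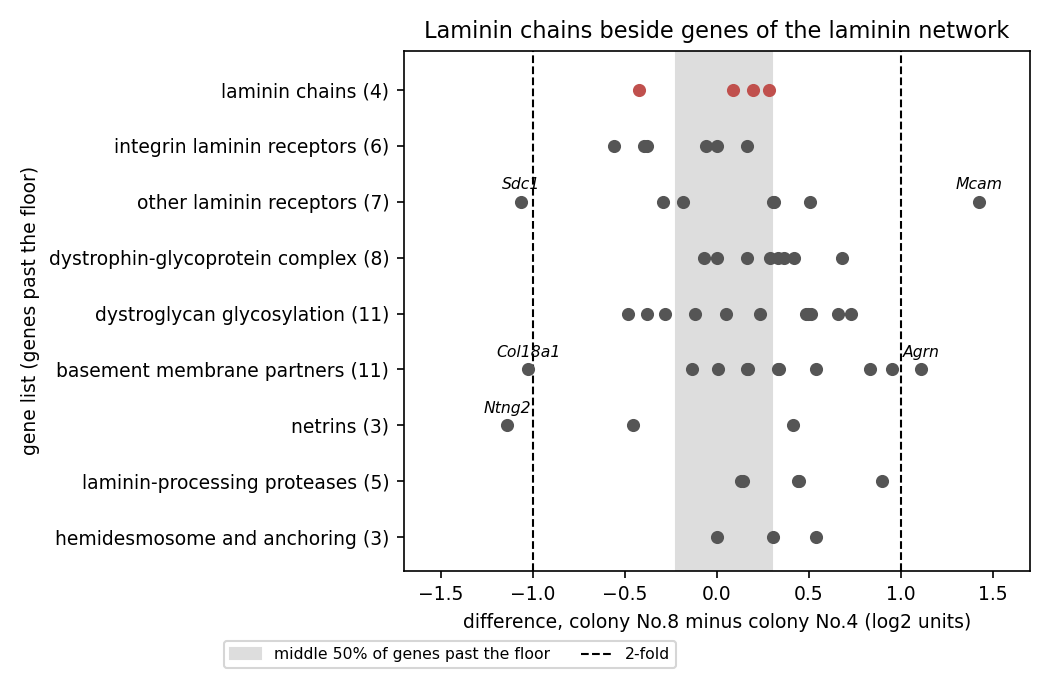
Differences in log2 units, colony No.8 minus colony No.4 (horizontal axis), for genes past the floor in the laminin set (red) and in 8 related lists (grey points, 1 per gene), with the number of genes in brackets. The 4 laminin chains lie between -0.42 and 0.28, while Mcam and Agrn lie beyond the 2-fold line on the colony No.8 side and Sdc1, Col18a1 and Ntng2 beyond it on the colony No.4 side.

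Netrins share the short-arm domains of laminin chains, and netrin 4 is known to interrupt laminin networks by binding γ1. Ntn4 read 5.81 in colony No.8, against 6.26 in colony No.4, a difference of -0.45. Ntng2, a membrane-anchored netrin of neurons, read 5.66 in colony No.8, against 6.80 in colony No.4 (2.20-fold higher in colony No.4). It was 1 of 3 netrin genes past the floor, of 6 measured, and no other reached 2-fold. Over all measured genes, 60.9% were past the floor, 5.47% of those were 2-fold apart, and the median difference was 0.03. With the offset, the difference of Ntng2 was -0.62, under 2-fold. The median over the 6 netrin genes was 0.00, with a sign that depended on the scaling, and over the 3 past the floor it was -0.45.

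Of 10 proteases known to cut laminins or to act in their breakdown, 5 were past the floor, beside 60.9% of all measured genes. Of those 5, 0 were 2-fold apart, beside 5.47% of all genes past the floor. The median was 0.27 over the 10, or 0.04 with the offset, beside 0.03 over all measured genes. Mmp14, the membrane-bound metalloprotease, read 6.75 in colony No.8, against 5.85 in colony No.4. Plat, a plasminogen activator, read 9.04 in colony No.8, against 8.59 in colony No.4. Of 4 measured hemidesmosome and anchoring genes, 3 were past the floor and 0 were 2-fold apart, beside the same shares over all genes. With so few genes, a count of 0 is no result about either list. Plec, the linker protein plectin, read 8.86 in colony No.8, against 8.32 in colony No.4. Cd151, a tetraspanin that partners laminin-binding integrins, read 10.14 in colony No.8, against 9.83 in colony No.4.

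Markers of other cell types were read beside the chains, since α4 is typical of vessels and peripheral nerve. Over all measured genes, 60.9% were past the floor and 31.6% were bright in both colonies. Of genes past the floor, 5.47% were 2-fold apart. Of 6 endothelial markers 2 were past the floor, Tek (5.97 in colony No.8, against 4.84 in colony No.4, and 2.19-fold higher in colony No.8) and Cldn5 (4.38 in colony No.8 and 4.20 in colony No.4). The other endothelial markers, Cdh5, Vwf, Emcn and Tie1, were below the floor in both colonies. Of 6 measured Schwann markers 5 were past the floor, and Pmp22, Sox10, Egr2 and Ngfr were bright in both colonies. Ngfr read 9.32 in colony No.8, against 7.05 in colony No.4 (4.84-fold higher in colony No.8). Pmp22 read 10.17 in colony No.8, against 9.14 in colony No.4 (2.04-fold higher in colony No.8). Sox10 and Egr2 read the other way, at 9.36 and 8.69 in colony No.8, against 9.69 and 9.21 in colony No.4. Prx was past the floor and under the olfactory mark in both colonies, and Cdh19 was below the floor in both.

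Beside the counts that follow, 60.9% of all measured genes were past the floor, and 5.47% of those were 2-fold apart. Of 6 smooth muscle and pericyte markers 4 were past the floor, and 2 of them were 2-fold apart, Pdgfrb and Tagln. Pdgfrb was 2.10-fold higher in colony No.8. Tagln read 5.45 in colony No.8 and 3.92 in colony No.4, the lower level being under the floor. Of 8 fibroblast and meningeal markers 6 were past the floor, with Col1a1 higher in colony No.8 (5.22-fold) and Tbx18 higher in colony No.4 (3.07-fold). Col1a1 read 10.64 in colony No.8, against 8.25 in colony No.4, and Tbx18 read 4.75, against 6.37. Col1a2 (1.41-fold) and Col3a1 (1.39-fold) read higher in colony No.8 but were under the olfactory mark in both. Pdgfra was bright in both and 1.63-fold higher in colony No.4. Foxc1 was past the floor in colony No.4 alone, and Dcn and Lum were below it in both. Of 7 measured epithelial markers 1 was past the floor, Epcam, which read 6.19 in colony No.8, against 7.30 in colony No.4 (2.17-fold higher in colony No.4). The other 6, among them Cdh1, were below it, as were Lama3 and Lamb3. With the offset of 64, the smooth muscle and pericyte list had 0 markers 2-fold apart (2 without it). The endothelial, epithelial and glia and glioma lists then had 0 each (1 without it). The Schwann list and the fibroblast and meningeal list had 1 each (2 without it). Centring on the median difference also left 1 Schwann marker 2-fold apart. The part of these cell types in the chain levels, and in the differences of Mcam, Agrn and the other partner genes, was not tested.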

How the data were processed

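Total RNA from each colony was hybridised to 1 array after labelling with a GeneChip whole-transcript kit, per the labels' protocols. The authors deposited 1 value per feature and colony in a table of 36685 features. These deposited values were taken to be log2 levels, although no label or header states their scale. Base 2 was inferred from the highest value, 13.3, which no natural log or log10 of a 16-bit scan reaches. The authors' correction and normalization steps: not given in the sources used here. The platform annotation gave 18511 features exactly 1 symbol, 575 several and 17599 none. Promoter sequences came from RefSeq (GRCr8). Some genes and chain combinations are not reported here. Single probes and detection calls were not used, and the number of arrays limits the precision.

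Differences, 2-fold counts among genes past the floor, chain combinations and list medians were computed in Python 3.11.15 with pandas 2.3.3, and no test or p-value was possible. The 2-fold calls were tested on simulated data and the rule for chain combinations on a few made-up cases. The list medians were not tested in this way. The chains, marks and gene lists were chosen with earlier results of these data known. All 9 chains were to be named, then a fixed set of partner genes, every 2-fold member of the network lists, and otherwise the 2 members past the floor with the largest differences.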

Additional observations from a re-analysis of the deposited data

How the results depend on the processing

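Under the scalings, offset and feature choices tried (6 alternatives per chain), all 8 measured chains kept the sign of their difference. The offset cannot change a sign, and the feature choices act on Lama4 alone, since each other chain had 1 feature. For those other chains, only the scalings could have changed it. Lama5 ranged from -0.46 to -0.31 and Lama4 from 0.16 to 0.36, where 0.36 is its dimmer feature. The count of chains at least 2-fold apart was 0 under all 10 of its alternatives, a fold size of 1.5 and no floor included. At 1.34-fold, the largest chain difference was short of 1.5-fold, so the fold size, floor and offset settings could not have given another count. The count of trimers with every chain past the mark, 4 in each colony at the floor, was 2 in each at the 99th percentile of olfactory receptor genes and at the upper quartile. At a fold size of 1.5, the counts past it were 1 in the dystrophin complex, 2 in dystroglycan glycosylation, 1 among the proteases (each 0 at 2-fold) and 4 among basement membrane partners (2 at 2-fold). With an offset of 64, the counts at 2-fold were 1 for the other receptors (2 without it), 0 for basement membrane partners (2) and 0 for netrins (1), and the median of the basement membrane partners was 0.069 (0.34). Without a floor, 1 integrin gene was 2-fold apart, Itga2. The dystroglycan glycosylation median was 0.23 with the dimmest feature per gene. The netrin median changed sign with centring and with the loess. The construction of each setting shows the change it makes; no further cause was tested. A median or difference was called moved when it shifted by 0.26 or more, a margin of 0.5 times the interquartile range of differences. No paired analysis was possible because each colony has 1 array. Dim chains are limited by background, which was not measured per probe.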

Other observations

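Lama3 and Lamb3 gave the same difference to 5 decimals, 0.09674, a value shared by 10 measured genes. In the whole table of 36685 features, 1320 had identical values in both colonies. Of these, 81.1% were below the floor of 4.33, which is the median of all values, and their median level was 3.18. Those ties concern a difference of 0 and not the shared 0.09674. The levels of the 10 genes are not given here, and the equality of Lama3 and Lamb3 is given as a value only.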
